A study of Mus musculus with 5 samples.

Results

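The prolactin receptor pathway was followed through 7 genes, *Prlr*, *Jak2*, *Stat5a*, *Stat5b*, *Cish*, *Socs2* and *Socs3*, chosen by their symbols among the 27998 genes of each count table. The data were single-cell RNA counts from 5 libraries of the number 4 mammary glands of female BALB/cj mice, 1 library per group. All mice were ovariectomized, were treated from 20 weeks later for 1 week, and were 30 weeks old. The groups were DMSO vehicle (OVX), estradiol at 1 µg per animal by daily injection (OVX_E2), estradiol and progesterone at 0.1 mg per animal (OVX_E2_P4), estradiol with PBDEs in the food (OVX_E2_PBDE), and all of these together (OVX_E2_P4_PBDE). PBDEs are brominated flame retardants, and each kg of food held 7.1 mg of BDE-47, 0.9 mg of BDE-153 and 0.4 mg of BDE-100, while the groups without PBDEs received matched food with DMSO. The number of animals behind each library is not given in the sources used here.

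Prolactin is a pituitary hormone that drives alveolar growth and milk production in the mammary gland. It binds its receptor at the cell surface, the receptor-bound kinase JAK2 is activated, and the transcription factors STAT5A and STAT5B are phosphorylated and enter the nucleus. Genes switched on by STAT5 include milk protein genes and the SOCS family members *Cish*, *Socs2* and *Socs3*, whose proteins dampen cytokine receptors. Transcript levels do not measure phosphorylation, so the counts below describe the parts of the pathway and not its activity.

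In mouse build GRCm38, GENCODE M21 places *Prlr* (ENSMUSG00000005268) at chr15:10177238-10349180 on the plus strand and *Jak2* (ENSMUSG00000024789) at chr19:29251828-29313080 on the plus strand. *Stat5b* (ENSMUSG00000020919) at chr11:100780731-100850724 on the minus strand and *Stat5a* (ENSMUSG00000004043) at chr11:100859351-100885169 on the plus strand are neighbouring copies of similar sequence, and reads that match both could not be assigned to either. *Cish* (ENSMUSG00000032578) is at chr9:107296026-107302784 on the plus strand. *Socs2* (ENSMUSG00000020027) at chr10:95385362-95417180 and *Socs3* (ENSMUSG00000053113) at chr11:117966079-117970047 are both on the minus strand. The annotated *Prlr* locus overlaps *Gm21973* on the same strand, so reads in shared exons could be lost from its count.

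RefSeq promoter entries (GRCm38.p6, 250 bases before to 50 after a transcript start) were at hand for 6 of the 7 genes, with 10 starts in all. They were searched for TTCNNNGAA, the palindromic letters that STAT5 is known to bind, which read the same on both strands and were counted with overlaps allowed. The motif was in 3 of the 10 windows, against 8.3% of 32851 promoters, and *Cish* held 2 copies, where 0.457% of promoters held 2 or more. The windows below are shown because *Cish* and *Socs3* are textbook targets of STAT factors, with the motif in capitals, and a match describes letters only.
Cish, chr9:107296654-107296683, plus strand: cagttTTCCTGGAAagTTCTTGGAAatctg
Socs3, chr11:117969502-117969531, minus strand: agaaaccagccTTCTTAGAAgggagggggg
Prlr, chr15:10223785-10223814, plus strand: ggcaaaatgagTTCTAGGAAtaagggatat
Positions count from the transcript start of each RefSeq entry, which can differ from the gene bounds above, and all 3 windows lie inside those bounds. The copies in *Cish* began 0 and 11 bases after its RefSeq start. The *Socs3* copy began 154 bases before its start, and the *Prlr* copy 110 bases before the middle one of 3 starts.

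The tables held 14344 barcodes, of which 14317 passed the quality thresholds, with 19982067 to 42012988 unique molecular identifiers (UMIs) per library. Any pair of libraries shared 3 to 15 barcode sequences. Clusters were named from marker genes with the 7 genes kept out of the clustering, which gave hormone-sensing luminal (L-Hor-like) cells in every library, from 92 in OVX to 759 in OVX_E2_P4, and alveolar luminal (L-Alv-like) cells in the 4 libraries with estradiol, from 125 to 579. Basal-like clusters held 60 to 148 cells, fibroblast-like 886 to 2565, hematopoietic-like 37 to 162 and endothelial-like 27 to 72, the last with pericyte markers too. Clusters with both luminal programs, 195 to 490 barcodes per library at median depths of 15356.5 to 25546 UMIs, were kept apart as mixed luminal. The paper counted a cluster of this kind in OVX_E2 as doublets of the hormone-sensing and alveolar luminal types. No cluster of OVX was named L-Alv-like, and its 195 mixed luminal barcodes held the alveolar program too. A level is the UMIs of a gene per 1000000 UMIs of the cells of a compartment (CPM), and its exact 95% interval, like all intervals here, covers counting error only. With 1 library per group, treatment, animals and library preparation cannot be told apart, and no difference between groups was tested.

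*Prlr* was a gene of L-Hor-like cells. Its level there was 1656 CPM in OVX (95% interval 1567 to 1749), 1782 in OVX_E2 (1745 to 1819), 1446 in OVX_E2_P4 (1419 to 1474), 1745 in OVX_E2_PBDE (1715 to 1776) and 1759 in OVX_E2_P4_PBDE (1716 to 1802). In these levels, without scaling between libraries, OVX_E2_P4 was the lowest and its interval touched no other. Those of OVX_E2, OVX_E2_PBDE and OVX_E2_P4_PBDE overlapped. Which library was lowest changed with scaling, as given below. In L-Alv-like cells *Prlr* had 143 CPM in OVX_E2, 95.2 in OVX_E2_P4, 87.3 in OVX_E2_PBDE and 161 in OVX_E2_P4_PBDE, so the L-Hor-like level was 10.9 to 20.0 times higher within a library. This difference was known when the gene was chosen and is given without a test. The order by median CPM was L-Hor-like (1745), mixed luminal (1119), proliferating epithelial (577), L-Alv-like (119), hematopoietic-like (117), basal-like (103), endothelial-like (62.2) and fibroblast-like (61.9). The ranges over libraries of neighbours in this order stood apart down to L-Alv-like cells, and from there on they overlapped. The basal-like range also reached into that of proliferating cells.

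**Figure D1:**
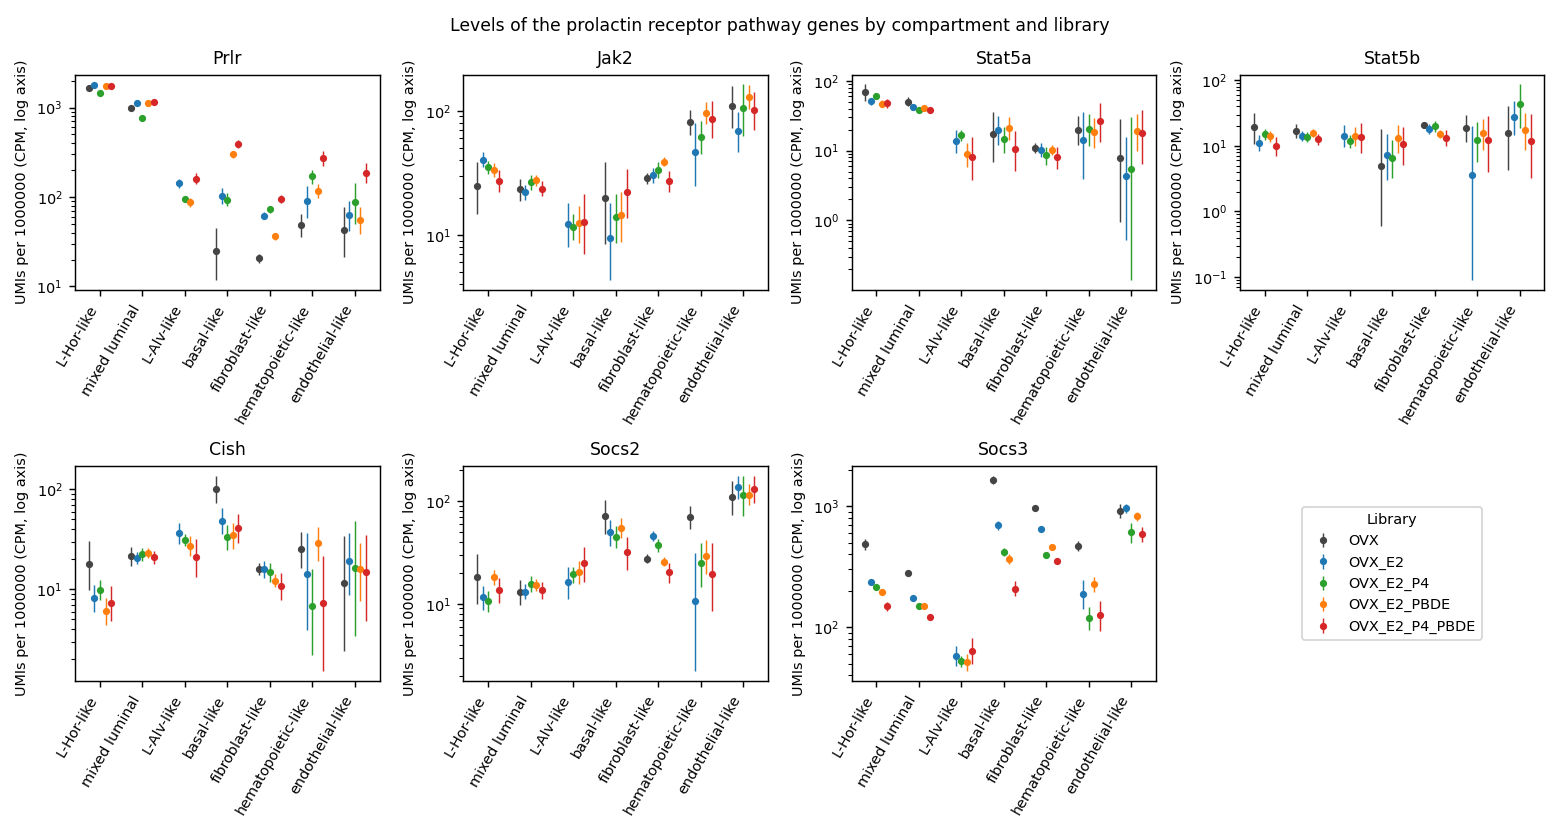
Level of each gene in 7 compartments (x axis) in UMIs per 1000000 (y axis, log scale), 1 point per library with its exact 95% Poisson interval. *Prlr* stands at 1446 to 1782 CPM in L-Hor-like cells and at or below 392 CPM outside the luminal clusters. Proliferating cells are not drawn. No cluster of OVX was named L-Alv-like, and its mixed luminal barcodes held both luminal programs.

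Nearly every L-Hor-like cell held a *Prlr* transcript. After each cell was thinned to 3000 UMIs, the share with at least 1 *Prlr* UMI was 100% of 92 cells in OVX (exact Clopper-Pearson 95% interval 96.1 to 100), 97.3% of 476 in OVX_E2, 96.4% of 759 in OVX_E2_P4, 98.5% of 608 in OVX_E2_PBDE and 98.3% of 600 in OVX_E2_P4_PBDE. All 5 libraries were above 96%. Without thinning the shares were 99.7% to 100%. Hematopoietic-like cells, read here for the share that RNA from other cells can give, had a thinned share of 8.64% in OVX, 13.5% in OVX_E2, 23.7% in OVX_E2_P4, 13.6% in OVX_E2_PBDE and 34.2% in OVX_E2_P4_PBDE. Their median depth was 4910 to 7386 UMIs, against 5540 to 10456 in L-Hor-like cells. Of the L-Alv-like cells the thinned share was 24.1% in OVX_E2, 19.0% in OVX_E2_P4, 17.2% in OVX_E2_PBDE and 34.4% in OVX_E2_P4_PBDE, and its interval overlapped that of the hematopoietic-like cells in each of these 4 libraries. The hematopoietic-like clusters had median doublet scores of 0.214 to 0.312, against 0.0566 to 0.111 for L-Alv-like clusters, and their *Prlr* level over fibroblast-like cells went from a log2 fold change of 1.28 to 0.06 once the barcodes with the highest doublet scores were left out. Fewer hematopoietic-like cells and fewer libraries entered the contrast in that setting. In each of the 4 libraries the *Prlr* level of L-Alv-like cells was also above that of fibroblast-like cells, which was 61.9 CPM in OVX_E2, 72.9 in OVX_E2_P4, 36.2 in OVX_E2_PBDE and 94.7 in OVX_E2_P4_PBDE. How much of the L-Alv-like *Prlr* was background was not tested.

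In basal-like cells the *Prlr* level and the markers of L-Hor cells were lowest in OVX and highest in the libraries with PBDEs. In basal-like cells *Prlr* was at 24.7 CPM in OVX, 103 in OVX_E2, 93.6 in OVX_E2_P4, 299 in OVX_E2_PBDE and 392 in OVX_E2_P4_PBDE. The 7 L-Hor markers summed to 37.0 CPM, 232, 300.0, 573 and 811 in the same cells and order, with 2 of the 7 at 0 in OVX and none at 0 in the other 4 libraries. Between OVX_E2 and OVX_E2_P4 the order of both differed. The number of *Prlr* UMIs per L-Hor marker UMI was 0.230 to 0.404 in L-Hor-like cells, 0.312 to 0.667 in basal-like cells and 0.292 to 0.506 in mixed luminal clusters. Within every library it was higher in basal-like than in L-Hor-like cells, and only in OVX did their intervals overlap. With the barcodes of the highest doublet scores removed, the basal-like *Prlr* ratio of OVX_E2_P4_PBDE over OVX_E2_P4 moved from 4.19 to 2.14. That of OVX_E2 over OVX moved from 4.19 to 2.16, and that of OVX_E2_PBDE over OVX_E2 from 2.90 to 2.43. L-Hor-like and mixed luminal barcodes made up 9.24% of the OVX library and 31.1% to 46.2% of the others. In fibroblast-like cells *Prlr* was lowest in OVX, at 20.6 CPM, and ranged from 36.2 to 94.7 in the other libraries. The part of free RNA and doublets in these low levels was not tested.

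**Figure D2:**
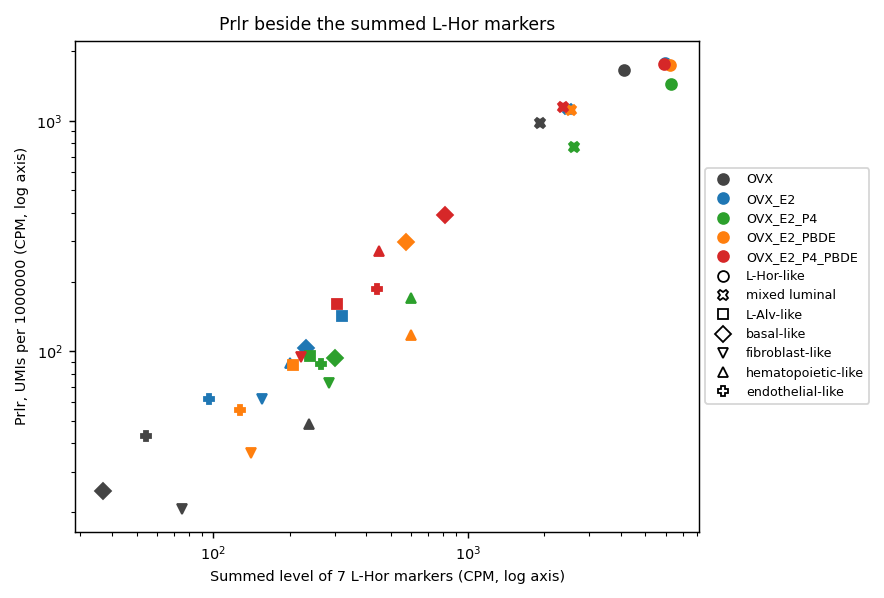
*Prlr* level (y axis) against the summed level of the 7 L-Hor markers (x axis), both in UMIs per 1000000 on log axes, 1 point per library (colour) and compartment (symbol). The basal-like points run from 37.0 and 24.7 CPM in OVX to 811 and 392 CPM in OVX_E2_P4_PBDE, and the L-Hor-like points lie at 1446 CPM of *Prlr* and above.

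*Jak2*, the kinase bound to the receptor, was highest in endothelial-like and hematopoietic-like cells. Its level in L-Hor-like cells was 24.6 CPM in OVX, 40.3 in OVX_E2, 35.1 in OVX_E2_P4, 33.2 in OVX_E2_PBDE and 27.2 in OVX_E2_P4_PBDE, and in L-Alv-like cells 11.7 to 12.8. Every L-Hor-like value was above every L-Alv-like value. Across libraries *Jak2* was higher in L-Hor-like than in L-Alv-like cells by a log2 fold change of 1.41 ± 0.18 (SE, adjusted p = 1.44e-08, edgeR quasi-likelihood test) in 4 of 4 libraries, and higher than in basal-like cells by 1.25 ± 0.20 (adjusted p = 1.37e-06). Endothelial-like cells held 109 CPM in OVX, 68.7 in OVX_E2, 105 in OVX_E2_P4, 130 in OVX_E2_PBDE and 101 in OVX_E2_P4_PBDE. These were above fibroblast-like cells by 1.16 ± 0.17 on the log2 scale (adjusted p = 2.00e-07) in 5 of 5 libraries. Hematopoietic-like cells, at 46.3 to 96.6 CPM, were above them by 1.26 ± 0.15 (adjusted p = 6.19e-09). L-Hor-like and fibroblast-like cells did not pass a test of their difference, 0.03 ± 0.13 (adjusted p = 0.839).

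*Stat5a* followed *Prlr* into the hormone-sensing lineage, and *Stat5b* did not. *Stat5a* had 68.6 CPM in L-Hor-like cells of OVX, 51.1 in OVX_E2, 60.3 in OVX_E2_P4, 47.4 in OVX_E2_PBDE and 47.7 in OVX_E2_P4_PBDE. In L-Alv-like cells it had 13.8 CPM in OVX_E2, 16.6 in OVX_E2_P4, 8.93 in OVX_E2_PBDE and 8.23 in OVX_E2_P4_PBDE. No L-Hor-like library overlapped an L-Alv-like, basal-like or fibroblast-like one. The log2 fold change was 1.94 ± 0.16 over L-Alv-like cells (adjusted p = 2.19e-13), 1.78 ± 0.17 over basal-like cells (adjusted p = 2.40e-11) and 2.42 ± 0.13 over fibroblast-like cells (adjusted p = 2.09e-19), each with the same direction in all libraries compared. Mixed luminal clusters, which were named for holding both luminal programs, had 38.3 to 50.7 CPM, and this range overlapped that of L-Hor-like cells. The low levels of L-Alv-like cells rested on few molecules, 9 UMIs in OVX_E2_P4_PBDE.

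*Stat5b* stayed between 10.1 and 19.4 CPM in L-Hor-like cells and between 11.7 and 14.3 in L-Alv-like cells. These ranges overlapped, and the log2 fold change was -0.05 ± 0.17 (adjusted p = 0.994). Basal-like cells were lower, at a median of 7.38 CPM on 2 to 18 UMIs per library. L-Hor-like cells exceeded them by 0.68 ± 0.22 (adjusted p = 0.00816) and L-Alv-like cells by 0.73 ± 0.24 (adjusted p = 0.0137). The first call was lost without OVX (adjusted p = 0.0637) or without OVX_E2_P4 (adjusted p = 0.122). The second was lost without OVX (0.0764), OVX_E2 (0.0642) or OVX_E2_P4 (0.0624), all as adjusted p. Against fibroblast-like cells, at 13.2 to 20.8 CPM, L-Hor-like cells were lower by -0.39 ± 0.13 on the log2 scale (adjusted p = 0.00905). This call was lost without OVX_E2 (adjusted p = 0.143), without a filter on low counts (0.105) and without the highest doublet scores (0.252). At the 5% mitochondrial threshold both calls over basal-like cells were lost, with an adjusted p of 0.114 for L-Hor-like and 0.112 for L-Alv-like cells.

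*Cish*, which encodes a STAT5-induced inhibitor of cytokine signalling, had its lowest median level in L-Hor-like cells, where those of *Prlr* and *Stat5a* were highest. L-Hor-like cells had 18.1 CPM in OVX, 8.19 in OVX_E2, 9.89 in OVX_E2_P4, 6.04 in OVX_E2_PBDE and 7.35 in OVX_E2_P4_PBDE, on 14 to 73 UMIs. L-Alv-like cells had 36.5 CPM in OVX_E2, 31.1 in OVX_E2_P4, 27.1 in OVX_E2_PBDE and 21.0 in OVX_E2_P4_PBDE, all above every L-Hor-like value. Basal-like cells had 101 CPM in OVX, 48.5 in OVX_E2, 33.2 in OVX_E2_P4, 34.7 in OVX_E2_PBDE and 41.1 in OVX_E2_P4_PBDE. Within a library the L-Hor-like level was 0.223 to 0.350 times the L-Alv-like level. The log2 fold change of L-Hor-like cells was -1.90 ± 0.21 against L-Alv-like cells (adjusted p = 8.81e-10), -2.27 ± 0.23 against basal-like cells (adjusted p = 4.12e-11) and -0.69 ± 0.20 against fibroblast-like cells (adjusted p = 0.00247). Against fibroblast-like cells *Cish* was lower in 4 libraries and higher in 1, OVX, at 1.13 times their level. L-Alv-like and basal-like cells differed by -0.36 ± 0.21, which did not pass the test (adjusted p = 0.188).

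*Socs2*, whose protein restrains growth hormone and prolactin receptors, was highest in endothelial-like cells. The level there was 109 CPM in OVX, 137 in OVX_E2, 116 in OVX_E2_P4, 116 in OVX_E2_PBDE and 130 in OVX_E2_P4_PBDE, all above the 20.2 to 45.7 CPM of fibroblast-like cells, with a log2 fold change of 1.47 ± 0.22 (adjusted p = 2.94e-07). These clusters also held pericytes, and which of the cells carried *Socs2* was not tested. In the epithelium the order was basal-like (31.6 to 71.5 CPM), L-Alv-like (16.3 to 24.7) and L-Hor-like (10.6 to 18.1). L-Hor-like cells were below basal-like cells by -1.67 ± 0.23 on the log2 scale (adjusted p = 9.20e-08) and L-Alv-like cells by -1.10 ± 0.25 (adjusted p = 0.000463). L-Hor-like cells were also below L-Alv-like cells, by -0.58 ± 0.24 (adjusted p = 0.0433) in 4 of 4 libraries, with overlapping ranges. That call was lost without OVX_E2_P4 (adjusted p = 0.238), without OVX_E2_P4_PBDE (adjusted p = 0.0961) and at a clustering resolution of 1.0 (adjusted p = 0.0585).

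*Socs3*, the feedback inhibitor of cytokine receptors that use gp130, had the opposite epithelial order for the luminal lineages. L-Hor-like cells had 483 CPM in OVX, 238 in OVX_E2, 217 in OVX_E2_P4, 197 in OVX_E2_PBDE and 149 in OVX_E2_P4_PBDE. L-Alv-like cells were nearly level, at 58.2 CPM in OVX_E2, 52.1 in OVX_E2_P4, 51.2 in OVX_E2_PBDE and 64.0 in OVX_E2_P4_PBDE. The L-Hor-like cells were above them by 1.76 ± 0.22 on the log2 scale (adjusted p = 1.41e-08) in 4 of 4 libraries. Basal-like cells had 1654 CPM in OVX, 692 in OVX_E2, 421 in OVX_E2_P4, 367 in OVX_E2_PBDE and 207 in OVX_E2_P4_PBDE. L-Alv-like cells were below basal-like cells by -2.88 ± 0.23 (adjusted p = 8.27e-13) and L-Hor-like cells by -1.12 ± 0.19 (adjusted p = 4.58e-06). Fibroblast-like cells, at 350 to 966 CPM, and endothelial-like cells, at 587 to 957, differed by 0.06 ± 0.19, which did not pass the test (adjusted p = 0.846).

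**Figure D3:**
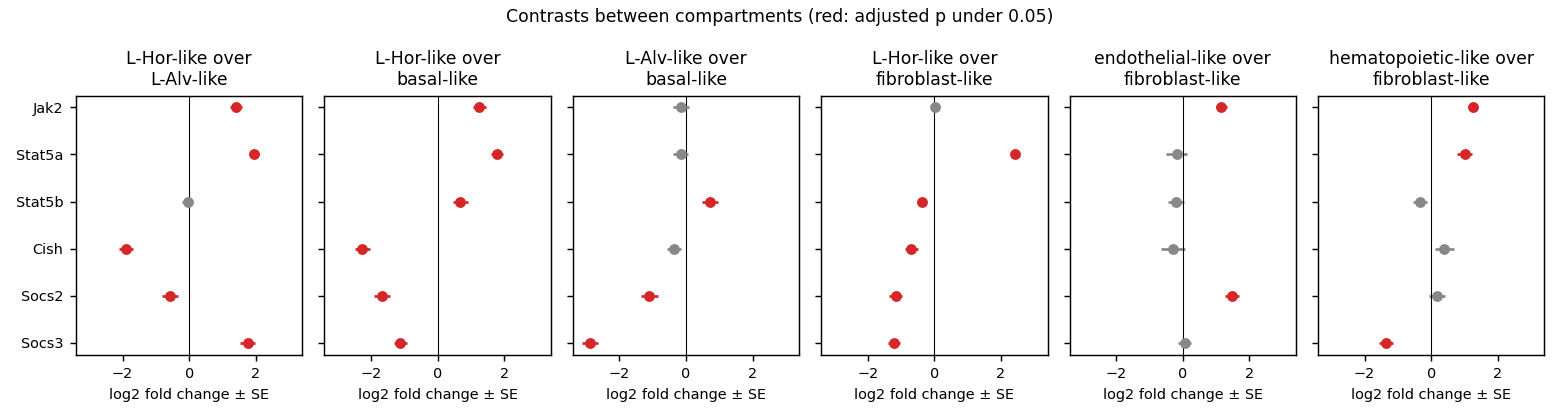
Log2 fold change between compartments (x axis, point, with its SE) for the 6 genes other than *Prlr*, with libraries as replicates and a term for library. Red points passed an adjusted p of 0.05, and *Stat5a* at 1.94 and *Cish* at -1.90 lie on opposite sides in L-Hor-like over L-Alv-like cells.

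Of the 6 genes other than *Prlr*, 3 were called higher and 2 lower in L-Hor-like over L-Alv-like cells, beside 26.7% and 25.8% of all 12256 genes tested. Against basal-like cells 3 were higher and 3 lower (27.7% and 27.2% of all genes), and against fibroblast-like cells 1 was higher and 4 lower (34.5% and 34.6%). L-Alv-like over basal-like cells gave 1 higher and 2 lower (18.9% and 18.7%). Endothelial-like over fibroblast-like cells gave 2 higher and 0 lower (21.1% and 25.1%), and hematopoietic-like over fibroblast-like cells gave 2 higher, *Jak2* and *Stat5a*, and 1 lower, *Socs3* (24.8% and 28.1%). Calls were common among all genes, with 52.5%, 54.9%, 69.2%, 37.6%, 46.2% and 52.9% of those tested called in either direction, in the order of these contrasts. The call of *Stat5a* in hematopoietic-like cells (log2 fold change 1.01) was lost when the barcodes with the highest doublet scores were removed (adjusted p = 0.101). That setting also left fewer of these cells and fewer libraries in the contrast.

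Between libraries, the levels in L-Hor-like cells differed by less than 2-fold for *Prlr* in all 5 comparisons, which share libraries with each other. The ratio of OVX_E2 over OVX was 1.08 (95% interval 1.01 to 1.14), that of OVX_E2_P4 over OVX_E2 was 0.812 (0.789 to 0.835), and that of OVX_E2_P4_PBDE over OVX_E2_PBDE was 1.01 (0.978 to 1.04). *Prlr* was lower with progesterone in the pair without PBDEs, and in the pair with them the main difference was within counting error. The ratio of that pair fell below its interval with the level in hematopoietic-like cells subtracted (0.913) and at a clustering resolution of 1.0 (0.920). It rose above the interval over all epithelial cells (1.05) and over all barcodes (1.29). The ratio for PBDEs was 0.979 (0.953 to 1.01) on estradiol alone, or 1.09 with TMM scaling, and 1.22 (1.18 to 1.25) with progesterone. The OVX_E2_P4 library enters both of the ratios furthest from 1 (0.812 and 1.22), while OVX_E2 over OVX reached 1.34 with TMM scaling. With that scaling OVX_E2_P4 over OVX_E2 was 0.858, so OVX, and not OVX_E2_P4, had the lowest *Prlr* level. Mixed luminal clusters gave 0.684 and 1.49 for the ratios that contain OVX_E2_P4 as the first and second term.

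In the same cells 0 of the 7 genes were at least 2-fold higher and 2 were at least 2-fold lower in OVX_E2 over OVX, beside 2.22% and 7.19% of the 7400 genes with at least 50 UMIs. These were *Socs3*, with a ratio of 0.494 (0.439 to 0.556), and *Cish*, with 0.452 (0.241 to 0.898) on 41 and 14 UMIs. The median log2 ratio over all genes was -0.26 in this comparison and -0.16 to -0.03 in the other 4, and with TMM scaling between the libraries the *Socs3* ratio became 0.615 and the *Cish* ratio 0.563, so that 0 of the 7 genes were past 2-fold. Of 8 alternatives *Cish* stayed past 2-fold in 2 (0.461 to 0.991) and *Socs3* in 5 (0.390 to 0.623). The other 4 comparisons moved 0 of the 7 genes past 2-fold in either direction, beside 0.861% higher and 0.635% lower of all genes for OVX_E2_P4 over OVX_E2, 0.956% and 0.749% for OVX_E2_P4_PBDE over OVX_E2_PBDE, 0.438% and 1.26% for OVX_E2_PBDE over OVX_E2, and 0.628% and 2.21% for OVX_E2_P4_PBDE over OVX_E2_P4. *Socs2* in OVX_E2_PBDE over OVX_E2 had a ratio of 1.57 (1.14 to 2.17). *Stat5a* had 1.18 (1.01 to 1.38) for OVX_E2_P4 over OVX_E2 and 0.791 (0.660 to 0.944) for OVX_E2_P4_PBDE over OVX_E2_P4.

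**Figure D4:**
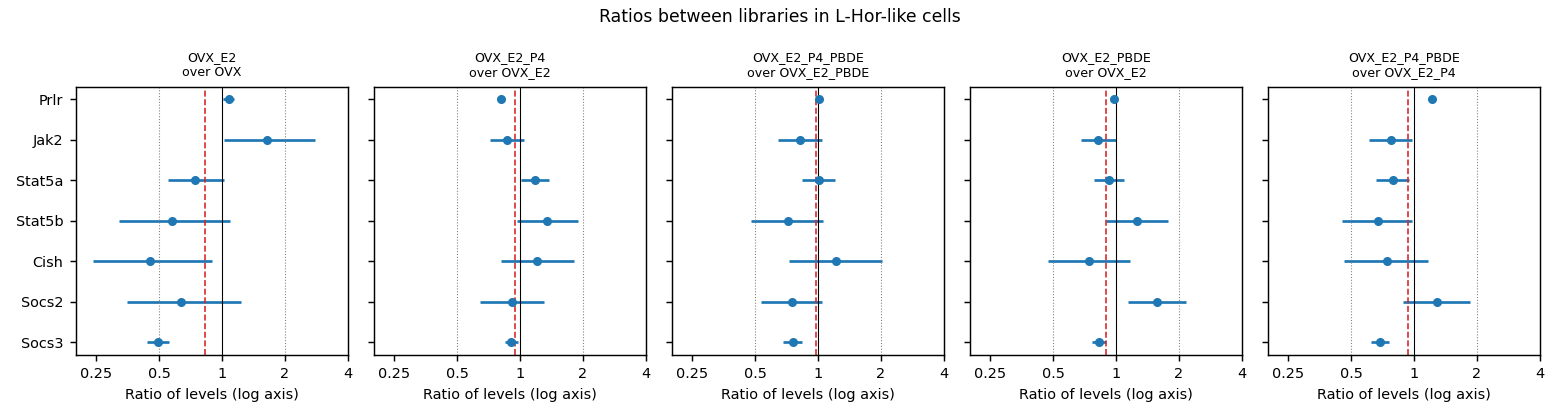
Ratio of levels between libraries in L-Hor-like cells (x axis, log scale) for the 7 genes, with exact 95% intervals of counting error. Dotted lines mark 2-fold, the dashed line the median ratio of all genes, and only *Cish* (0.452) and *Socs3* (0.494) in OVX_E2 over OVX lie past 2-fold.

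*Socs3* was higher in OVX than in every library with estradiol in L-Hor-like, basal-like, fibroblast-like, hematopoietic-like and mixed luminal cells, and in endothelial-like cells OVX_E2 was the highest. In basal-like cells the ratio of OVX_E2 over OVX was 0.418 (0.375 to 0.467), and in fibroblast-like cells it was 0.674 (0.651 to 0.698). The PBDE ratio with progesterone was 0.493 (0.418 to 0.579) in basal-like cells. There the luminal marker *Krt18* had 2083 CPM in OVX_E2_P4_PBDE and 679 in OVX_E2_P4. The part of luminal RNA in this ratio was not tested. The 14 genes of the dissociation stress list, among them *Fos*, *Jun* and *Atf3*, were also highest in OVX. They summed in L-Hor-like cells to 7791 CPM in OVX, 5901 in OVX_E2, 6354 in OVX_E2_P4, 5821 in OVX_E2_PBDE and 4616 in OVX_E2_P4_PBDE. In basal-like cells they summed to 15025 CPM, 7446, 6984, 6340 and 5332, which is the order of *Socs3* there. In L-Hor-like over L-Alv-like cells 3 of the 14 were higher and 2 lower, beside 26.7% and 25.8% of all genes. The part of handling stress in the *Socs3* levels was not tested.

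**Figure D5:**
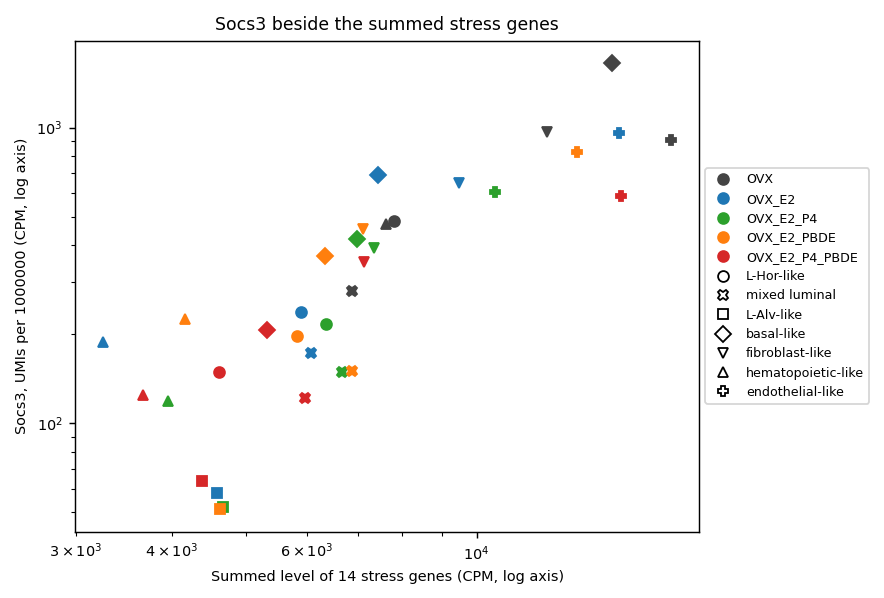
*Socs3* level (y axis) against the summed level of 14 dissociation stress genes (x axis), both in UMIs per 1000000 on log axes, 1 point per library (colour) and compartment (symbol). The basal-like points run from 1654 CPM of *Socs3* at 15025 CPM of stress genes in OVX to 207 at 5332 in OVX_E2_P4_PBDE, and the L-Alv-like points lie at 51.2 to 64.0.

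Basal-like cells had *Cish* at 0.480 times (0.308 to 0.749) the OVX level in OVX_E2. There, OVX_E2 over OVX had 1 of 4 genes with enough UMIs at least 2-fold higher, *Prlr* at 4.19 (2.18 to 9.01) on 10 UMIs in OVX, and 2 at least 2-fold lower, *Cish* and *Socs3*, beside 5.68% and 8.22% of 3066 genes. Without the barcodes of the highest doublet scores that *Prlr* ratio was 2.16. *Cish* stayed past 2-fold in 1 of 5 alternatives (0.480 to 0.601), and *Socs3* in 3 of 5, with 0.504 at the 5% mitochondrial threshold and 0.530 as a mean over cells. *Prlr* was also past 2-fold in basal-like cells for PBDEs, at 2.90 (2.32 to 3.65) on estradiol and 4.19 (3.44 to 5.12) with progesterone, beside 2.83% and 2.82% of all genes. The first was 1.61 as a mean over cells and 2.43 without the highest doublet scores, and the second was 3.21 and 2.14. In fibroblast-like cells *Prlr* was higher by 3.01 (2.58 to 3.51) in OVX_E2 over OVX and by 2.62 (2.29 to 2.99) in OVX_E2_P4_PBDE over OVX_E2_PBDE, beside 2.58% and 1.57% of all genes. Without the highest doublet scores these ratios were 2.62 and 2.82. In fibroblast-like cells the L-Hor markers summed to 75.1 CPM in OVX, 156 in OVX_E2, 285 in OVX_E2_P4, 140 in OVX_E2_PBDE and 222 in OVX_E2_P4_PBDE. In both *Prlr* ratios the library with the higher *Prlr* level had the higher marker sum, but OVX_E2_P4_PBDE had more *Prlr* and a lower sum than OVX_E2_P4. The number of *Prlr* UMIs per marker UMI was 0.274 in OVX, 0.398 in OVX_E2, 0.255 in OVX_E2_P4, 0.258 in OVX_E2_PBDE and 0.427 in OVX_E2_P4_PBDE. *Socs2* in fibroblast-like cells had ratios of 1.66 (1.42 to 1.94) for OVX_E2 over OVX, 0.563 (0.482 to 0.657) for OVX_E2_PBDE over OVX_E2 and 0.546 (0.417 to 0.710) for OVX_E2_P4_PBDE over OVX_E2_P4. Fibroblast-like cells pooled more than a single cluster in every library. The part of the mix of clusters in the fibroblast-like ratios was not tested. The *Socs3* ratio for PBDEs with progesterone in basal-like cells, given above, stood beside 3.67% lower among all genes, and was within 2-fold in all 5 alternatives (0.504 to 0.527). In L-Alv-like cells 1 gene passed 2-fold, *Stat5a* in OVX_E2_P4_PBDE over OVX_E2_P4, at 0.494 (0.220 to 0.974) on 9 UMIs, beside 3.03% lower among all genes, and at 0.502 with TMM scaling.

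Hematopoietic-like and endothelial-like cells were fewer, and their ratios rest on fewer UMIs. Hematopoietic-like cells pooled more than a single cluster in OVX and OVX_E2_P4. The part of the mix of cells in their ratios was not tested. The hematopoietic-like ratios past 2-fold had no value without the highest doublet scores. In hematopoietic-like cells *Socs2* had 69.7 CPM in OVX, 10.7 in OVX_E2, 24.7 in OVX_E2_P4, 29.1 in OVX_E2_PBDE and 19.6 in OVX_E2_P4_PBDE. The ratio of OVX_E2 over OVX was 0.154 (0.0309 to 0.469) on 3 and 66 UMIs, and that of *Socs3* was 0.401 (0.295 to 0.533), beside 14.9% lower among all genes there. *Jak2* was higher in OVX_E2_PBDE over OVX_E2 by 2.08 (1.16 to 4.06) on 93 and 13 UMIs, beside 8.77% of all genes, and by 1.83 as a mean over cells. *Prlr* in these cells was higher in OVX_E2_P4_PBDE over OVX_E2_PBDE by 2.32 (1.77 to 3.04), beside 1.41% of all genes. In endothelial-like cells the same *Prlr* ratio was 3.36 (2.19 to 5.24), beside 1.34%. It was 1.25 without the highest doublet scores and 6.46 at the 5% mitochondrial threshold. The *Prlr* ratio of OVX_E2_P4_PBDE over OVX_E2_P4 was 2.12 (1.21 to 3.93), beside 2.22%, and had no value in those settings. In endothelial-like cells the L-Hor markers summed to 441 CPM in OVX_E2_P4_PBDE, 264 in OVX_E2_P4 and 127 in OVX_E2_PBDE, which is the order of *Prlr*. In hematopoietic-like cells they summed to 596 CPM in OVX_E2_PBDE and 449 in OVX_E2_P4_PBDE, opposite to *Prlr*.

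The other genes of the pathway were read from lists, whose counts for L-Hor-like over L-Alv-like cells stand beside 26.7% higher and 25.8% lower among all genes tested. Among 8 ligands, *Prl* had 0 UMIs in all compartments, which allows at most 0.125 CPM in L-Hor-like cells, and 4 ligands were deep enough to be tested. Of these 1 was lower in L-Hor-like than in L-Alv-like cells, *Lif*, a ligand of gp130 receptors, with a log2 fold change of -4.49 ± 0.34 (adjusted p = 2.74e-14), from 42.0 to 84.5 CPM in L-Alv-like cells against 2.00 to 6.47. Its receptor subunit *Lifr* lay the other way, at 48.5 to 75.1 CPM in L-Hor-like cells against 6.87 to 14.3 (2.42 ± 0.22, adjusted p = 6.60e-12). Of the 10 receptors 2 were higher, *Lifr* and *Epor*, the latter on at most 4 UMIs per L-Hor-like library and 0 in the L-Alv-like ones, and 1 was lower, *Osmr* at -0.68 ± 0.16 (adjusted p = 0.00034). The growth hormone receptor *Ghr* was not called between the luminal lineages, and its L-Hor-like level was 38.8 CPM in OVX, 43.9 in OVX_E2, 19.0 in OVX_E2_P4, 16.0 in OVX_E2_PBDE and 20.2 in OVX_E2_P4_PBDE.

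Of the 3 other JAK kinases *Jak1* was lower in L-Hor-like cells by -0.41 ± 0.10 (adjusted p = 0.000648). Of the 5 other STATs *Stat2* was higher (1.36 ± 0.28, adjusted p = 7.07e-05), and *Stat3*, the main STAT behind gp130 (-0.64 ± 0.12, adjusted p = 2.42e-05), and *Stat6* (-1.13 ± 0.16, adjusted p = 9.11e-08) were lower. Among 13 further inhibitors 4 were higher and 7 lower, led by *Socs5* (-2.06 ± 0.16), the phosphatase *Ptpn6* (1.91 ± 0.29), *Socs7* (-1.71 ± 0.22), the phosphatase *Ptpn1* (1.58 ± 0.13) and *Pias3* (1.23 ± 0.25). Of 11 targets 6 were tested, 0 were higher and 4 were lower. These were the milk protein gene *Lalba* (-6.63 ± 0.42), the alveolar transcription factor *Elf5* (-4.73 ± 0.27), the kinase gene *Pim1* (-1.99 ± 0.14) and the growth factor gene *Igf1* (-0.78 ± 0.31, adjusted p = 0.0327). *Elf5* and *Lalba* took no part in the clustering or naming here, but both are known marks of alveolar cells, so their lower L-Hor-like level is a property of the lineages and no independent result. The median log2 fold change of the 6 tested targets was -1.38, beside 0.01 over all genes. It counts *Elf5* and *Lalba*, so it is no independent result either. In L-Alv-like over basal-like cells 3 of these 6 targets, *Elf5* and *Lalba* among the 6, were higher and 1 lower, beside 18.9% and 18.7% of all genes. In endothelial-like over fibroblast-like cells 6 of the 10 receptors were higher and 3 lower, with a median of 2.33, beside 21.1% and 25.1% of all genes. In hematopoietic-like over fibroblast-like cells 4 of the 5 other STATs were higher and 0 lower, beside 24.8% and 28.1%. Between libraries in L-Hor-like cells, the listed genes past 2-fold are named by the size of their ratio, at most 3 per list and comparison. The shares of all genes past 2-fold in each comparison are given above. The named genes were picked for their ratios, so they are no result about the lists. *Il6* had 7.76 CPM in OVX, 2.40 in OVX_E2, 10.2 in OVX_E2_P4, 11.8 in OVX_E2_PBDE and 4.36 in OVX_E2_P4_PBDE. *Ghr* had ratios of 0.432 for OVX_E2_P4 over OVX_E2 and 0.365 for OVX_E2_PBDE over OVX_E2. *Elf5* had 2.71 for OVX_E2_P4 over OVX_E2 and 0.467 for OVX_E2_P4_PBDE over OVX_E2_P4. L-Alv-like cells were 145 of 2229 barcodes in OVX_E2, 579 of 3097 in OVX_E2_P4 and 125 of 2358 in OVX_E2_P4_PBDE. The part of their RNA in the L-Hor-like *Elf5* levels was not tested. *Igf1* (0.499) was lower in OVX_E2 over OVX, and *Socs1* (0.434) in OVX_E2_P4_PBDE over OVX_E2_P4. These ratios of listed genes were not recomputed with TMM scaling, which moved *Socs3* in OVX_E2 over OVX from 0.494 to 0.615. Fibroblast-like cells were 2565 of 3107 barcodes in OVX and 941 of 2229 in OVX_E2. The part of their RNA in the L-Hor-like *Igf1* levels was not tested.

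Over the 38 pairs of library and compartment with at least 20 cells, the log2 level of *Prlr* ran with that of *Stat5a* (Pearson r = 0.835) and against that of *Socs2* (r = -0.644), and *Socs2* ran with *Socs3* (r = 0.712). The pairs share libraries and cell types, so these values describe the table and carry no p. Among 12296 genes with at least 200 UMIs, the patterns most like *Prlr* were those of *Tmem56* (r = 0.98), *Wfdc2* (0.968) and *Dkkl1* (0.964). Those most like *Stat5a* were *Sult2b1* (0.894), *Uckl1os* (0.889) and *Mtmr7* (0.877). The genes nearest to *Cish* were *D10Wsu102e* (0.85), *Nop58* (0.831) and *Rrs1* (0.813), and those nearest to *Socs2* were *Tbx2* (0.924), *Tdrp* (0.922) and *Slc27a3* (0.917).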

How the data were processed

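The authors made the libraries with the 10x Genomics Chromium 3′ v2 kit, aligned and counted with Cell Ranger 2.0.0 against mm10, and deposited raw UMI counts per gene and barcode without normalization. Totals per library ranged from 19982067 to 42012988 UMIs. The genes and lists were chosen with earlier results of these data known, and the cluster naming limits were set after the clusters had been seen.

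Barcodes with at least 500 genes, 1000 UMIs and at most 10% mitochondrial UMIs were clustered library by library in Seurat 5.3.0 (2000 variable genes without the 7 genes and their lists, 10 components, 20 neighbours, resolution 0.3 for OVX and 0.5 for the others). A cluster took the name of the type whose markers, each relative to its highest cluster, averaged at least 0.25, with the suffix -like. A cluster that reached this for both luminal types was called mixed luminal, and 21 barcodes of OVX_E2_P4_PBDE with L-Hor and fibroblast markers stayed unnamed. An epithelial cluster counted as proliferating, and was set apart, where 50% of its cells held at least 2 UMIs of proliferation markers. Doublets were not removed in the main results. Scrublet scores served for an alternative without the highest 20%.

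Counts were summed per library and compartment (at least 20 cells). Contrasts between compartments used edgeR 4.0.16 (R 4.3.3, TMM, filterByExpr, quasi-likelihood test, library as a term, Benjamini-Hochberg adjustment over 12256 genes), with the SE taken as the fold change over the root of F. All compartments, mixed luminal and proliferating ones included, were fitted in a single model and shared a single estimate of the spread per gene. The libraries differ in treatment, so p-values set a compartment difference against that shared spread over libraries and treatments. They do not measure the spread of the compared compartments alone. Ratios between libraries have exact conditional intervals, and 2-fold was counted among genes with at least 50 UMIs. Shares used cells thinned to 3000 UMIs, and 0 cells were shallower. A level of 0 was given the limit of 3 counts over the compartment. Named list genes were at most 5 per list, those with the largest change among the genes called in L-Hor over L-Alv cells, and at most 3 per list past 2-fold in L-Hor cells per comparison. Likeness was Pearson's r of log2(CPM + 1), and the 3 genes with the highest r are named. Intervals were computed with scipy and the procedures were tested on simulated data.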

Additional observations from a re-analysis of the deposited data

Results flagged for a closer look

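The *Cish* level in the basal-like cells of OVX, 101 CPM, stood apart from the 33.2 to 48.5 CPM of the other 4 libraries. The *Socs3* level of OVX in L-Hor-like cells, 483 CPM, stood apart from the 149 to 238 CPM of the other 4. In each case the gap to the nearest library exceeded Dixon's 95% limit for 5 values, which chance passes in about 1 of 20 groups. These 2 were found among 56 groups searched, no more than chance gives, and the libraries are different treatments. OVX is the only library without estradiol, so its treatment and its library cannot be told apart.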

How the results depend on the processing

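The contrasts between compartments were recomputed with DESeq2, with other size factors, without a filter on low counts, with a larger minimum of cells, with 5% mitochondrial UMIs, with a clustering resolution of 1.0, without the 20% of barcodes with the highest doublet scores, and without each library in turn. Of the contrasts of single genes 528 stayed on their side of the threshold, 15 lost their call, 3 gained one and 0 turned. *Prlr*, whose L-Hor level was known when the genes were chosen, is counted here and in the counts of the 7 genes below. Without the library term, which is the replicate block of the main design, 6 of the 7 genes were called in L-Hor over L-Alv cells and 5693 of all genes, against 6436 with it, and the block changed no count by over 1.5 times. The calls of *Stat5b* depended most on single libraries or settings. With the highest doublet scores removed, 2 of the 7 genes, in place of 4, were called in hematopoietic over fibroblast cells, and 3735 in place of 6487 of all genes. Fewer hematopoietic cells and libraries entered that contrast. In the same setting *Cish* became lower in L-Alv than in basal cells (log2 fold change -0.60, adjusted p = 0.0228). Leaving out a library in turn gave 5 to 6 of the 7 genes and 5311 to 6789 of all genes in L-Hor over L-Alv cells, 6 to 7 and 5605 to 6701 in L-Hor over basal, 2 to 3 and 3219 to 4621 in L-Alv over basal, 5 to 6 and 7461 to 8615 in L-Hor over fibroblast, 2 to 2 and 4641 to 5469 in endothelial over fibroblast, and 4 to 4 and 5408 to 6146 in hematopoietic over fibroblast cells.

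Of the ratios between libraries in L-Hor cells, for OVX_E2 over OVX *Prlr* became 1.34 with TMM scaling, 1.24 with mixed luminal clusters added and 2.89 over all barcodes, and *Socs3* became 0.615, 0.623 and 0.390, and 0.599 without the highest doublet scores. For OVX_E2_P4 over OVX_E2 *Prlr* was 0.858 with TMM, 0.680 over all epithelial cells, 0.734 over all barcodes and 0.754 with the hematopoietic level subtracted, and *Socs3* was 0.816 over epithelial cells and 0.647 over all barcodes. For OVX_E2_P4_PBDE over OVX_E2_PBDE *Prlr* was 0.920 at resolution 1.0, 1.05 over epithelial cells, 1.29 over all barcodes and 0.913 subtracted, and *Socs3* was 0.668 over all barcodes. For OVX_E2_PBDE over OVX_E2 *Prlr* was 1.09 with TMM, 1.04 over epithelial cells and 0.870 over all barcodes, and *Socs3* was 0.920 with TMM. For OVX_E2_P4_PBDE over OVX_E2_P4 *Prlr* was 1.11 at resolution 1.0, 1.30 with TMM, 1.61 over epithelial cells, 1.53 over all barcodes and 1.17 subtracted, and *Socs3* was 0.806 over epithelial cells and 0.903 over all barcodes. Ratios over all barcodes mix compartments of different size. With a minimum of 20 UMIs the genes past 2-fold numbered 1460, 379, 415, 360 and 549 in these 5 comparisons (OVX_E2_PBDE over OVX_E2 the fourth), in place of 696, 139, 148, 155 and 253, and resolution 1.0 gave 267 for OVX_E2_P4_PBDE over OVX_E2_PBDE. Unthinned shares of L-Hor cells with *Prlr* were 99.8% in OVX_E2, 100% in OVX_E2_PBDE and OVX_E2_P4, and 99.7% in OVX_E2_P4_PBDE. The causes were not tested. Depth limits *Cish*, *Stat5b* and *Jak2* in basal and L-Alv cells, where a library held 2 to 200 UMIs of each.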
